A study of Mus musculus with 36 samples.

Results

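The circadian clock's nuclear receptors and output factors were examined in mouse bone marrow-derived macrophages (BMDMs) as a set of 10 genes, chosen by name out of the 54532 genes of the count table. They are Nr1d1 and Nr1d2, which encode the receptors REV-ERBα and REV-ERBβ, Rora, which encodes RORα, and Dbp, Tef and Hlf, which encode the PAR bZIP activators. The others are Nfil3, the bZIP repressor E4BP4, Bhlhe40 and Bhlhe41, the repressors DEC1 and DEC2, and Ciart, the repressor CHRONO. All 10 were found, 1 row each. WT cells came from Bmal1 flox/flox mice (n = 3 replicates) and KO cells from LysM-Cre;Bmal1 flox/flox mice (n = 6), all female C57BL/6 mice of 13 to 17 weeks, so the controls carry the floxed alleles too. In the KO, Cre is made under the myeloid LysM promoter, from the Lyz2 locus. Bone marrow was grown for 7 days with MCSF and then received, for 6 h, vehicle (DMSO), 100 µM CCM, a ligand of the PASB domain of BMAL1, 100 nM LPS, or LPS with CCM, which gave 8 groups and 36 libraries. No time of day is given. The study's methods hold that macrophages taken from mice at 1 time are in phase without a synchronising treatment, and each group was sampled at 1 time.

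In the clock, BMAL1 and CLOCK bind E-boxes and activate the genes of their own repressors, the PER and CRY proteins, and those of REV-ERB, DEC1, DEC2, CHRONO and the PAR bZIP factors. REV-ERB and ROR compete for the same element, the RORE, where ROR activates and REV-ERB represses, among others at the Bmal1 gene (Arntl), Cry1 and Nfil3. The PAR bZIP activators and E4BP4 compete for the D-box in the same way. In macrophages REV-ERB is known for repressing inflammatory genes.

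Promoter sequences from RefSeq (build GRCm38.p6, 250 bases before to 50 after the start of a gene) were found for 9 of the 10 genes, with 10 entries, since Tef has 2. On both strands they were searched for the E-box CACGTG, the D-boxes TTATGTAA and TTACGTAA and the RORE core AGGTCA. The E-box was found in the promoters of 3 of the 9 genes, Ciart, Tef and Bhlhe41, and in 7.15% of all 32851 promoters of this length. The RORE core was found for 2 genes, Nr1d2 and Nfil3, and in 16.3% of all promoters. Neither D-box was found, against 0.938% and 0.119% of all promoters. Members are counted here by gene and the background by promoter entry, so the shares differ in unit, and both entries of Tef hold the E-box. The 4 sequences below are shown because they hold these motifs in genes called in at least 1 comparison or setting, and they are written on the strand of the gene with the motif in capitals.
Tef (chr15:81802423-81802722, plus strand, E-box at -127, first of 2 entries): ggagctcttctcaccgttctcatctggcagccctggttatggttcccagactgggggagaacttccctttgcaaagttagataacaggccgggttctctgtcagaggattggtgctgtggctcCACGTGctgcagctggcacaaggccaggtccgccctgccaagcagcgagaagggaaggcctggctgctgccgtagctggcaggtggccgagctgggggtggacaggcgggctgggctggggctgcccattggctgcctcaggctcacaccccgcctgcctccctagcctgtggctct
Bhlhe41 (chr6:145865371-145865670, minus strand, E-box at -153): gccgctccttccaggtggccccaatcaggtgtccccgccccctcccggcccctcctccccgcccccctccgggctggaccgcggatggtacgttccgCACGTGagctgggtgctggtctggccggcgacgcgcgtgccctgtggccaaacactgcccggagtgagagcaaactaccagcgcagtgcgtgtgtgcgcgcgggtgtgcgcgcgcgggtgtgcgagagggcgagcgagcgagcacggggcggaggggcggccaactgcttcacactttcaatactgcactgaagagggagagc
Nr1d2 (chr14:18239057-18239356, minus strand, RORE core at -77): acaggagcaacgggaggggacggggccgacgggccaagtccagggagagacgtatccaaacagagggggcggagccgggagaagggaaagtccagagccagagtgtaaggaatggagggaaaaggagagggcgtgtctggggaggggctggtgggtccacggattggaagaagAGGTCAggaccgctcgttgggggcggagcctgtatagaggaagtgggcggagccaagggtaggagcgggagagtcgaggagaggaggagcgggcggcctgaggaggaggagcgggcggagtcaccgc
Nfil3 (chr13:52980990-52981289, minus strand, RORE core on the opposite strand at -12): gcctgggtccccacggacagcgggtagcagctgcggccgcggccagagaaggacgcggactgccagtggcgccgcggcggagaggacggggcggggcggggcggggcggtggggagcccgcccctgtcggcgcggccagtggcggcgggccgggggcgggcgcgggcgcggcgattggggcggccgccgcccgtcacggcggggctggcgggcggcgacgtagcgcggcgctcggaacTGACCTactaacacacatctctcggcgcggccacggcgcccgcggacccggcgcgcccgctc
A match describes letters in this window and was not tested as a binding site.

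Between 13469262 and 28288923 read pairs per library fell on genes. Levels are given as CPM, read pairs of a gene relative to the total of its library after scaling by edgeR's TMM factors. A gene is referred to as called where edgeR's quasi-likelihood test, adjusted by Benjamini and Hochberg over all genes tested, gave a p of 0.05 or less. Where the ranges of 2 groups are said not to overlap, the share of all genes that separate so was not counted. Each of the 6 macrophage markers was above 1 CPM in at least 1 library, with summed levels of 4119 to 5650 CPM in WT and 3940 to 6103 in KO replicates 1 to 5. In the libraries of KO replicate 6 they summed to 2909 to 4318 CPM, and the neutrophil markers to 895 to 934 CPM against 298 to 529 in WT and 322 to 852 in KO replicates 1 to 5, with Ly6g under 1 CPM in all libraries. Over all libraries the B cell markers summed to 0.641 to 2.85 CPM, the T cell markers to 5.64 to 32.8, the erythroid markers to 0.943 to 10.4 and the fibroblast markers to 301 to 1650, with Ms4a1, Pax5, Cd3e, Cd8a and Alas2 under 1 CPM in each library. The 4 libraries of KO replicate 6 lay 0.7 to 0.94 (median absolute log2 distance over genes) from the rest of their groups, KO LPS+CCM replicates 1 to 5 lay at 0.26 to 0.44, with replicate 5 the farthest, and the remaining libraries at 0.11 to 0.19. The values of CCM under LPS in KO rest on that more widely spread group. The deletion cannot be read from the Bmal1 gene as a whole, since its count sums deleted and kept exons. Arntl had 7.52 to 12.9 CPM in WT, 4.52 to 8.29 in KO replicates 1, 3, 4 and 5, 7.76 to 10.8 in those labelled KO replicate 2 and 2.02 to 4.80 in KO replicate 6. At the Cre locus, Lyz1, a neighbour and near-identical copy of Lyz2, separated the libraries further, with 3.15 to 6.38 CPM in WT and 31.1 to 53.4 in KO replicates 1, 3, 4 and 5. In the 4 libraries labelled KO replicate 2 it was 2.87 to 5.14 CPM, so they go against their label, and in KO replicate 6 it was 98.0 to 127. Results that rest on KO libraries are therefore given with all libraries and without replicates 2 and 6, a choice made after seeing the data. Since these are bulk samples, fewer cells of a type and less RNA per cell cannot be told apart.

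In unstimulated WT macrophages Bhlhe40 and Bhlhe41 had the highest levels per length of the set, and Ciart and Hlf the lowest. Per kilobase of gene length, the mean in WT vehicle libraries was 25.5 CPM for Bhlhe40, 14.1 for Bhlhe41, 9.0 for Nr1d2, 7.11 for Nfil3 and 6.65 for Tef. It was 3.97 for Nr1d1, 1.90 for Dbp, 1.49 for Rora, 0.994 for Ciart and 0.0865 for Hlf. REV-ERBβ therefore had more RNA per length than REV-ERBα, and Tef more than the other PAR bZIP genes. Hlf had 1 to 23 read pairs per library and Ciart 20 to 92, so that changes in these genes could be seen only if large. Of the 10 genes, 6 overlap exons of a gene on the opposite strand, Nr1d1 with Thra, Dbp with Sphk2, Rora with Gm15511, Tef with Gm17597, Bhlhe40 with 0610040F04Rik and Bhlhe41 with Gm43909. Whether the counting used strand is not given in the sources used here, so reads of these partners cannot be told apart. Ciart overlaps C920021L13Rik outside its exons, and Nr1d2, Hlf and Nfil3 overlap no annotated gene.

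**Figure D1:**
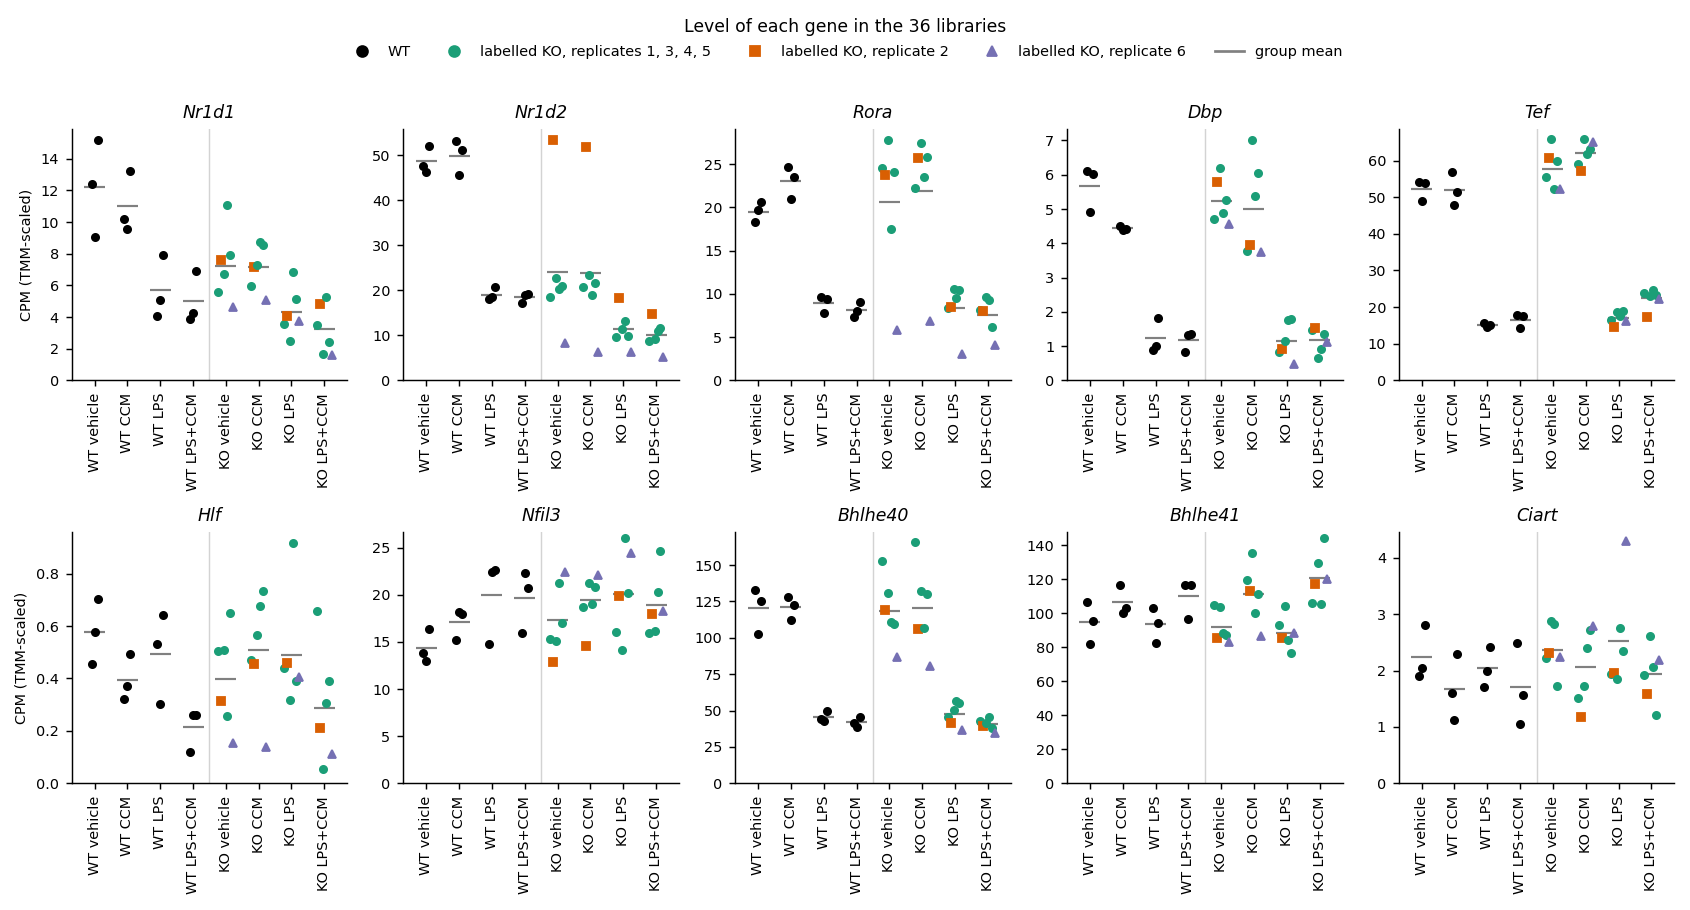
Level of each of the 10 genes (y axis, CPM, linear scale from 0) in the 36 libraries by group (x axis). Points are libraries, with squares for those labelled KO replicate 2 and triangles for KO replicate 6, and grey lines are group means. For Nr1d1, Nr1d2, Rora, Dbp, Tef and Bhlhe40 the WT libraries with LPS lie below those without it, and for Nr1d2 replicate 2 lies at the level of WT except with LPS+CCM.

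LPS, the bacterial cell wall component that starts the inflammatory program of macrophages, was compared with vehicle to ask how the set responds to stimulation. In WT macrophages 6 of the 10 genes fell, both REV-ERB genes, Rora, Dbp, Tef and Bhlhe40, and 1 rose, Nfil3. Hlf, Bhlhe41 and Ciart were not called. Of all 14501 genes tested, 63.0% were called, so that 7 of 10 is close to the background. The median change of the 10 genes was -1.08 on the log2 scale, against -0.05 over all genes tested. In KO macrophages the same 6 genes fell (6 of 9 tested), against 47.1% of all 13648 genes, with a median of -1.07 against -0.05. Without KO replicates 2 and 6 these 6 were again called, of 10 tested, against 64.8% of all genes. The treatment itself was seen in each of 6 LPS-induced genes (Il1b, Il6, Tnf, Ptgs2, Nos2 and Cxcl10), which rose in both genotypes, with a median log2 change of 10.28 in WT and 8.83 in KO. The summed level of the macrophage markers was 4119 to 4548 CPM in WT vehicle and 5357 to 5525 in WT LPS libraries, and its part in the results was not tested.

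**Figure D2:**
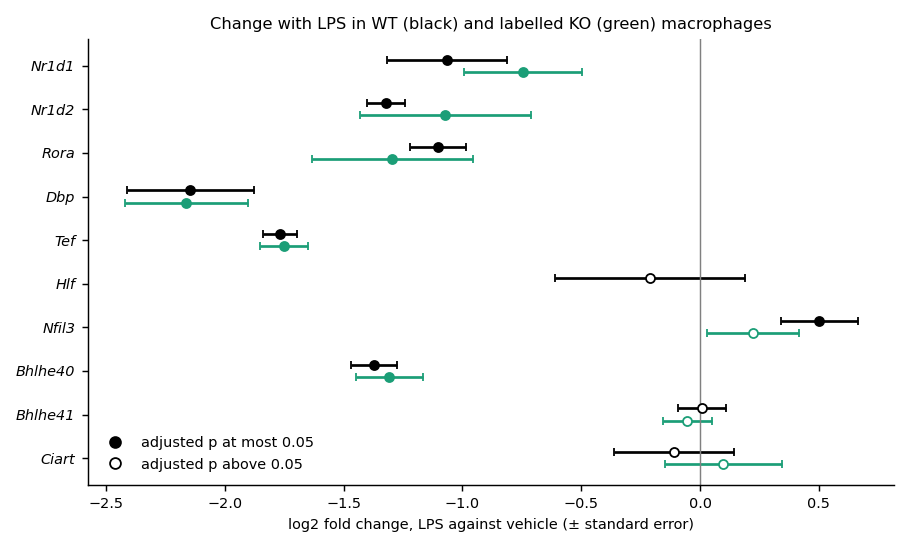
Log2 fold change of each gene with LPS against vehicle (x axis, points with standard errors) in WT (black, n = 3 per group) and KO (green, n = 6 per group). Filled points had an adjusted p of at most 0.05. From Nr1d1 to Tef and for Bhlhe40 both genotypes lie below 0, and Hlf was not tested in KO.

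Among the nuclear receptors, Nr1d2 had 47.7, 46.3 and 52.0 CPM in the WT vehicle and 18.1, 18.4 and 20.6 CPM in the WT LPS libraries. The groups did not overlap, and the level was 2.50-fold lower with LPS (log2 fold change -1.32, standard error 0.08, edgeR adjusted p = 2.6e-07). In KO it went from 8.29 to 53.4 CPM (median 20.7) with vehicle to 6.24 to 18.2 (median 10.6) with LPS, ranges that overlap through the vehicle library of replicate 6. The log2 fold change was -1.07 (edgeR adjusted p = 0.025), and -0.87 without replicates 2 and 6 (4.1e-05). It was not called when KO replicate 1, 3 or 5 alone was left out (adjusted p of 0.062, 0.068 and 0.068, log2 fold change of -1.07 to -1.09). Nr1d1 had 12.4, 9.05 and 15.2 CPM in WT vehicle and 4.08, 5.08 and 7.89 in WT LPS libraries, again with no overlap (log2 fold change -1.06, standard error 0.25, edgeR adjusted p = 0.0041). In KO its levels were 4.65 to 11.1 CPM (median 7.15) and 2.49 to 6.84 (median 3.91), which overlap. The log2 fold change was -0.74 (edgeR adjusted p = 0.024), and -0.77 without replicates 2 and 6 (0.035), and the call was lost without KO replicate 1, 2, 3 or 5 alone (adjusted p of 0.054, 0.081, 0.066 and 0.057). In a fit blocked on replicate number, both REV-ERB genes were called in KO (Nr1d1 -0.76, edgeR adjusted p = 0.00027, and Nr1d2 -0.98, 1.1e-05). Same-numbered libraries of this comparison had r of 0.300 to 0.830 in their deviations from the group means. Those of different numbers had a median r of 0.175, so the pairing in KO is uncertain. Rora, the activator on the same element, had 18.3, 19.6 and 20.6 CPM in WT vehicle and 9.69, 7.73 and 9.38 in WT LPS libraries (log2 fold change -1.10, standard error 0.12, edgeR adjusted p = 1.8e-05). In KO the log2 fold change was -1.29 (0.0063), and -1.24 without replicates 2 and 6 (1.4e-05). The level in KO replicate 6 was 5.81 CPM with vehicle and 2.996 with LPS, below the other KO libraries of both groups. In WT the activating receptor of the RORE was thus 2.15-fold lower and the repressing ones 2.09-fold (Nr1d1) and 2.50-fold (Nr1d2).

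Dbp and Tef, the PAR bZIP genes that were called, had the largest log2 fold changes of the called members in both genotypes. Dbp, whose protein activates D-box genes, had 6.11, 4.92 and 6.01 CPM in WT vehicle and 0.886, 0.999 and 1.81 in WT LPS libraries, 4.42-fold lower (log2 fold change -2.15, standard error 0.27, edgeR adjusted p = 5.9e-05). In KO it had 4.57 to 6.21 CPM (median 5.06) with vehicle and 0.486 to 1.79 (median 1.04) with LPS, with no overlap (-2.16, 1.3e-05, and -1.89, 2.5e-05, without replicates 2 and 6). Tef, with the same binding site, had 54.1, 49.0 and 53.9 CPM in WT vehicle and 15.8, 14.4 and 15.1 in WT LPS libraries, 3.40-fold lower (log2 fold change -1.77, standard error 0.07, edgeR adjusted p = 1.2e-08). In KO, Tef went from 52.3 to 65.8 CPM (median 57.8) to 14.6 to 19.0 (median 17.1), 3.37-fold lower (-1.751, 1.2e-08, and -1.67, 1.3e-08, without replicates 2 and 6). Of the called members Tef had the smallest standard error in both genotypes. Hlf had 0.456 to 0.702 CPM in WT vehicle and 0.304 to 0.644 in WT LPS libraries (log2 fold change -0.21, standard error 0.40, edgeR adjusted p = 0.67). These 6 libraries held 7 to 23 read pairs of Hlf each. Nfil3, the repressor on the D-box, was the only member that rose in WT, from 13.8, 12.99 and 16.4 to 14.8, 22.5 and 22.6 CPM. One LPS library lay within the vehicle range (log2 fold change 0.50, standard error 0.16, edgeR adjusted p = 0.021). The call was lost without WT vehicle replicate 2, WT LPS replicate 2 or WT LPS replicate 3 (adjusted p of 0.061, 0.086 and 0.088). In KO it had 12.8 to 22.5 CPM with vehicle and 14.1 to 26.003 with LPS and was not called (0.22, edgeR adjusted p = 0.38, and 0.19, 0.38, without replicates 2 and 6). It was called with the replicate block (0.22, adjusted p = 0.042), in which 7 of 9 members and 71.6% of all genes were called.

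Of the DEC genes, a pair of E-box repressors, Bhlhe40 was called and Bhlhe41 was not. Bhlhe40 had 133, 103 and 125 CPM in WT vehicle and 44.2, 42.7 and 49.6 in WT LPS libraries, 2.59-fold lower (log2 fold change -1.37, standard error 0.10, edgeR adjusted p = 8.1e-07). In KO it went from 86.6 to 153 CPM (median 115) to 36.8 to 56.8 (median 47.7), with no overlap (-1.31, 4.7e-06, and -1.24, 1.9e-06, without replicates 2 and 6). Bhlhe41 had 107, 82.2 and 95.5 CPM in WT vehicle and 103, 82.8 and 94.4 in WT LPS libraries (0.01, standard error 0.10, edgeR adjusted p = 0.95). In KO it was -0.05 (0.72), and -0.07 (0.61) without replicates 2 and 6. Whether the DEC genes differ from each other in response was not tested. With scaling by library totals alone, the median of all genes tested shifted by -0.41 in WT and by -0.38 in KO. Bhlhe41 was then called lower in WT and KO, by -0.40 and -0.44, which relative to the median of all genes is 0.06 in WT and -0.01 in KO. Nfil3 was 0.09 in WT and -0.15 in KO under that scaling, neither called, and 0.56 and 0.28 relative to the median. The 6 genes called lower remained called in both genotypes. Of all called genes 76.0% were lower in WT and 75.8% in KO under that scaling, against 51.4% and 52.4% with TMM. Ciart had 1.90, 2.04 and 2.81 CPM in WT vehicle and 1.71, 1.998 and 2.42 in WT LPS libraries (-0.11, standard error 0.25, edgeR adjusted p = 0.72), and 0.10 in KO (0.79) or -0.09 without replicates 2 and 6 (0.75). The responses of the genotypes to LPS were compared as an interaction, in which 0 of 10 members and 0.0% of 15093 genes were called by edgeR, with 0 members and 112 genes at an unadjusted p under 0.05, and 0 members by DESeq2. The largest interaction of a called member was 0.34 for Nr1d1 (standard error 0.41). Without replicates 2 and 6 again 0 of 10 members and 0.0% of 14886 genes were called, and Nr1d2 was the 1 member at an unadjusted p under 0.05 (0.41, standard error 0.15, edgeR adjusted p = 0.9999), with 310 genes. On simulated data with all libraries, 11.5% of genes changed by 1 on the log2 scale were recovered. Differences of this size between genotypes would thus mostly have been missed in that fit, and the fit without replicates 2 and 6 was not simulated.

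Of 18 other listed genes of the clock, 15 were tested with LPS in WT, of which 3 rose and 6 fell, a share near the 63.0% of all genes called. In KO 14 were tested, of which 3 rose and 6 fell, against 47.1% of all genes, and without replicates 2 and 6, 4 rose and 6 fell, against 64.8%. Per1 and Per3, clock repressors, fell in both genotypes (Per1 by 0.83 in WT and 0.64 in KO on the log2 scale, and Per3 by 1.52 and 1.55), as did Csnk1e, Tipin and Usp2. Cry1, the late repressor of the clock, rose by 1.76 in WT (standard error 0.10, edgeR adjusted p = 2.1e-07) and by 1.07 in KO (0.020), and by 1.08 without replicates 2 and 6 (8.8e-08). Timeless rose in both genotypes, Per2 was called in WT, where it fell, and not in KO, and Cry2 and Npas2 were called in KO and not in WT, with no gene called in the genotype by LPS interaction. Of 9 genes known as targets of REV-ERB repression, 5 rose in WT (Nfil3, Cry1, Mmp9, Ccl2 and Il6) and 1 fell, Cx3cr1 (log2 fold change -1.55), again a share near the 63.0% of all genes. Their median was 0.50, against -0.05 over all genes. In KO 4 rose and 2 fell, against 47.1% of all genes called, and without replicates 2 and 6 the counts were also 4 and 2, against 64.8%. Of the REV-ERB corepressor complex, Tbl1x and Tbl1xr1 fell in WT (log2 fold changes of -0.52 and -0.74) and Tbl1xr1 in KO (-0.74).

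KO and WT macrophages were compared within each treatment to ask what loss of BMAL1 does to the set. With all libraries as labelled, no member was called, and no other gene. For vehicle 0 of 10 members and 0.0% of 14385 genes were called, for CCM 0 of 10 and 0.0% of 14235, for LPS 0 of 9 and 0.0% of 13794, and for LPS+CCM 0 of 9 and 0.0% of 13938. Summed over treatments per replicate number, 0 of 10 members and 0.0% of 17724 genes were called. DESeq2 called 0 members in each as well. At an unadjusted p under 0.05 edgeR gave 2 members for vehicle, 3 for CCM, 1 for LPS, 2 for LPS+CCM and 3 for the sums, namely Nr1d2 in each, Nr1d1 for vehicle, CCM and the sums, and Tef for CCM, LPS+CCM and the sums. Over all genes there were 118, 126, 105, 187 and 140.

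**Figure D3:**
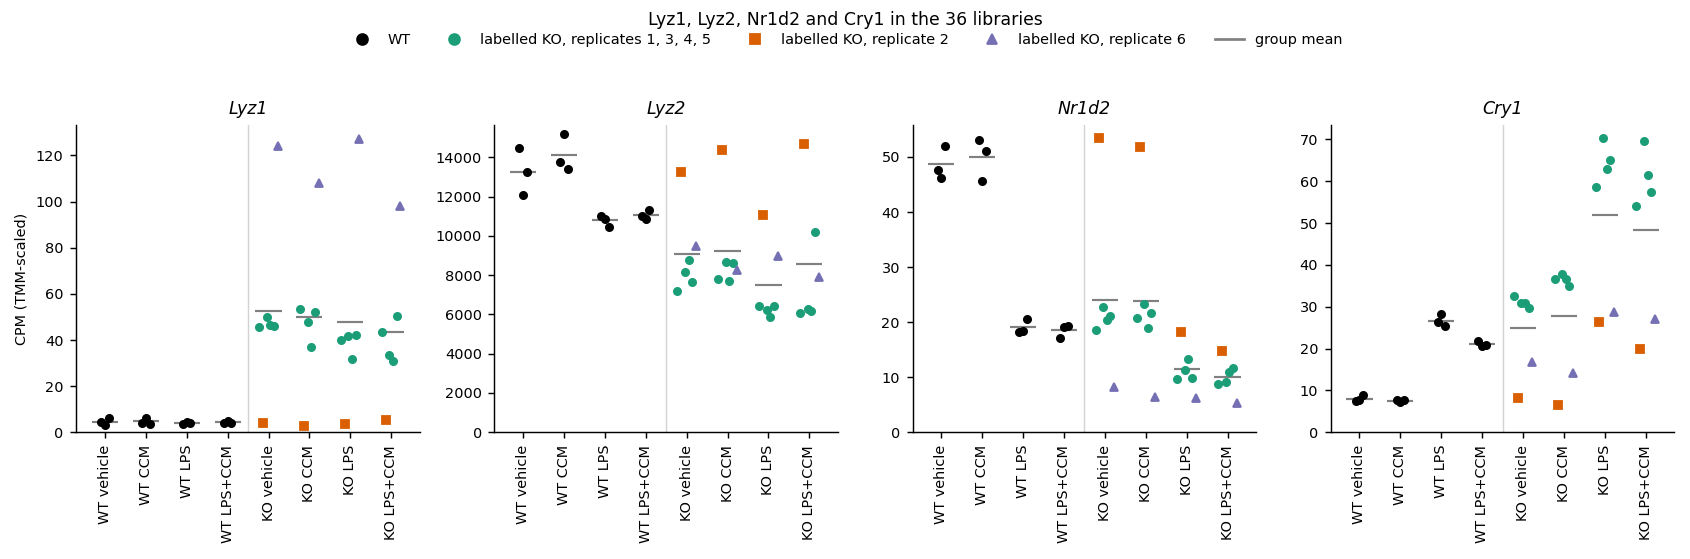
Levels of Lyz1, Lyz2, Nr1d2 and Cry1 (y axes, CPM, linear scale from 0) in the 36 libraries by group (x axis), with symbols for replicate 2 (squares) and replicate 6 (triangles) of the KO and grey lines for group means. In each panel the squares lie with the WT libraries or near them rather than with KO replicates 1, 3, 4 and 5.

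Nr1d2 was the member called between the genotypes once replicates 2 and 6 were left out. In vehicle libraries it had 47.7, 46.3 and 52.0 CPM in WT and 18.6 to 22.8 CPM in KO replicates 1, 3, 4 and 5, with 53.4 in the library labelled KO replicate 2 and 8.29 in KO replicate 6. With CCM the levels were 53.1, 45.6 and 51.2 CPM in WT and 19.0 to 23.3 in these 4 KO replicates, with 51.9 and 6.34 in replicates 2 and 6. The library of replicate 2 lay above the WT range with vehicle and within it with CCM, and in the other 5 KO libraries the level was below all WT libraries. With LPS, WT libraries had 18.1 to 20.6 CPM and the 4 KO replicates 9.71 to 13.2, with 18.2 in replicate 2. With LPS+CCM the ranges were 17.2 to 19.2 and 8.72 to 11.7 CPM, with 14.8 in replicate 2. The mean of the 4 KO replicates was 42.5% of the WT mean for vehicle, 42.3% for CCM, 57.9% for LPS and 55.0% for LPS+CCM. With all 6 KO libraries the log2 fold change was -0.98 with vehicle (standard error 0.41, edgeR adjusted p = 1.0). Without replicates 2 and 6 it was -1.21 with vehicle (standard error 0.08, edgeR adjusted p = 0.00027), -1.25 with CCM (standard error 0.07, 4.4e-05) and -1.12 for the sums over treatments (standard error 0.08, 0.00062). With LPS it was -0.78 (standard error 0.12, edgeR adjusted p = 0.16) and with LPS+CCM -0.88 (standard error 0.14, 0.79), neither called. Replicate 2 was left out for Lyz1 and Lyz2 and replicate 6 for its macrophage markers, but Nr1d2 also separates both from the other KO libraries, so these p-values are not independent of the choice. Leaving out replicate 2 alone gave -1.37 for vehicle (edgeR adjusted p = 0.999) and replicate 6 alone -0.82 (0.9999), and Nr1d2 was called in neither.

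Without replicates 2 and 6, the genes called between the genotypes were few. With vehicle there were 5 of 14310 (0.0349%), Cry1, Lyz1, Nr1d2, Lyz2 and Cx3cr1, and with CCM 5 of 14072 (0.0355%), Cry1, Lyz1, Nr1d2, Lyz2 and Per2. With LPS there were 5 of 13610 (0.0367%), among them Cry1 and Per2 but no member, and with LPS+CCM 2 of 13723 (0.0146%), Lyz1 and Cry1. For the sums over treatments there were 5 of 17478 (0.0286%), with Nr1d2 the only member. Cry1, a gene that REV-ERB represses, was 1.98 higher in KO on the log2 scale with vehicle (standard error 0.09, edgeR adjusted p = 3e-05) and 2.27 higher with CCM. Its levels were 7.36 to 8.88 CPM in WT vehicle and 29.8 to 32.6 in the 4 KO replicates, with 8.16 in the library labelled replicate 2 and 16.8 in replicate 6. Cry1 thus also separates both from the other KO libraries, and its p-values are not independent of the choice either. Lyz1 and Lyz2 were the reason for leaving out replicate 2, so their calls follow in part from the choice. Over the 4 treatments Per2 had means of 2.23 and 2.73 CPM in replicates 2 and 6. It had 6.63 to 8.17 in the other KO replicates and 2.16 to 2.52 in WT. Cx3cr1 had a mean of 63.0 CPM in replicate 2, within the 56.7 to 74.1 of WT. The calls of Per2 and Cx3cr1 are thus not independent of the choice. Cx3cr1, listed as another REV-ERB target, was 1.09 higher with vehicle (0.028). Of the 9 listed REV-ERB targets 2 were called higher with vehicle, 1 each with CCM, LPS and LPS+CCM, and 0 lower. Nr1d1 was lower in KO by 0.61 with vehicle and 0.53 with CCM without replicates 2 and 6 (standard errors 0.23 and 0.16, edgeR adjusted p = 0.999 and 0.855). With CCM its WT libraries (9.55 to 13.2 CPM) and all 6 KO libraries (5.08 to 8.76) did not overlap, but with vehicle they did. Tef was 0.19 to 0.50 higher in KO in the 4 treatments, with adjusted p of 0.699 to 0.999. Its ranges in WT and in the 4 KO replicates did not overlap for CCM, LPS and LPS+CCM, and the library labelled replicate 2 was the lowest KO library in these 3. With all 6 KO libraries Tef separated only with CCM. Nfil3 also separated from the 4 KO replicates with CCM (15.2 to 18.2 CPM in WT and 18.7 to 21.2 in KO), with 14.6 in replicate 2. How many of all genes separate in this way was not counted. For Rora, Dbp, Hlf, Nfil3, Bhlhe40, Bhlhe41 and Ciart the log2 fold changes without replicates 2 and 6 lay between -0.28 and 0.61, with none called. DEC1, DEC2, CHRONO and the PAR bZIP genes, which BMAL1 and CLOCK are known to activate, were thus not called lower in the KO where they were tested, which for Hlf was with vehicle, with CCM and in the sums. On simulated data with all libraries, edgeR recovered 36.5% of genes changed by 1 on the log2 scale with vehicle and 17.5% with LPS+CCM. The fits without replicates 2 and 6 were not simulated, so these shares do not describe them.

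**Figure D4:**
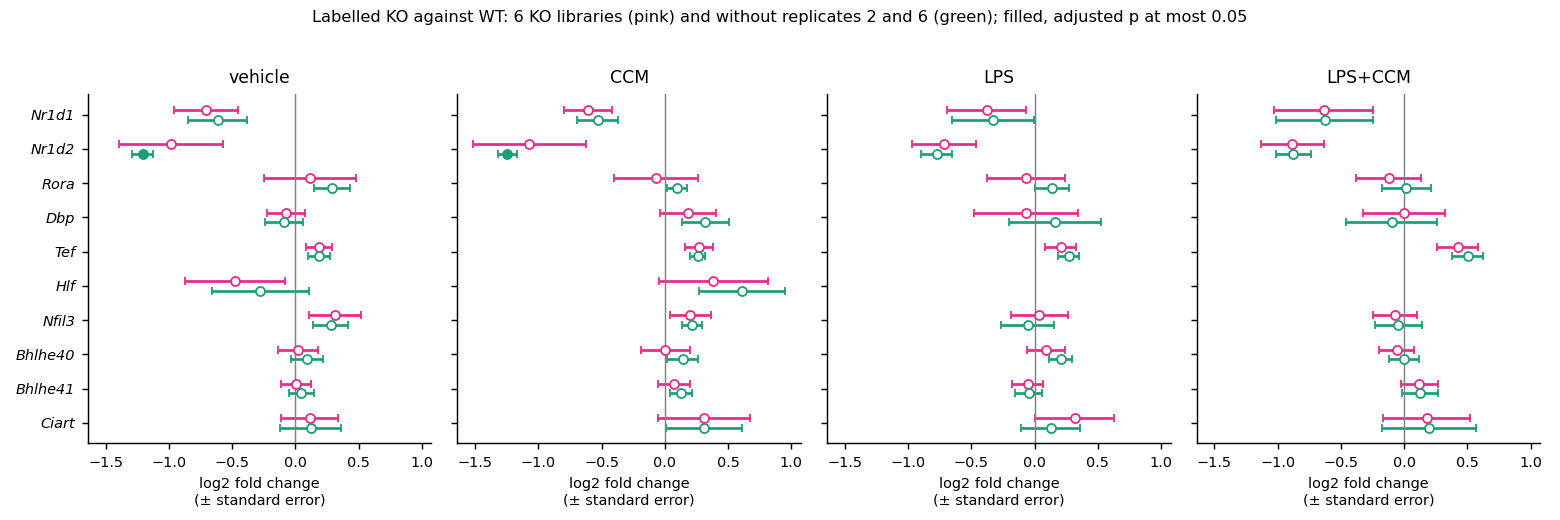
Log2 fold change of each gene in labelled KO against WT macrophages (x axis, points with standard errors), by treatment, with 6 KO libraries (pink) and without replicates 2 and 6 (green). Filled points had an adjusted p of at most 0.05, which holds for Nr1d2 with vehicle and with CCM without these replicates, at -1.21 and -1.25.

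CCM was compared with vehicle, and LPS+CCM with LPS, to ask whether the BMAL1 ligand moves the set. No member was called by edgeR or DESeq2 in any of these 4 comparisons. In unstimulated WT macrophages 0 of 10 members were called, against 0.057% of 14024 genes, with 2 members (Rora and Dbp) and 1404 genes at an unadjusted p under 0.05. In unstimulated KO macrophages 0 of 10 were called, against 0.0% of 13799 genes, with 1 member (Bhlhe41) and 333 genes. Without KO replicates 2 and 6 again 0 of 10 were called, against 0.0502% of genes. Under LPS, 0 of 9 members were called in WT, against 11.9% of 13579 genes, with 1 member (Bhlhe41) and 3493 genes at that p. Of these called genes 65.2% were lower with CCM, and 32.3% with scaling by library totals alone, which called Bhlhe41 higher (0.32, adjusted p = 0.038). In KO under LPS 0 of 9 were called, against 0.112% of 13386 genes, with 3 members (Tef, Bhlhe40 and Bhlhe41) and 1070 genes, and without KO replicates 2 and 6 also 0, against 0.0667%. On simulated data of the WT comparison under LPS, 79.0% of genes changed by 1 on the log2 scale were recovered, and without LPS 77.5%. Over the genes tested, changes of that size would thus mostly have been called in WT. In KO these shares were 49.0% and 41.5%. They do not cover Hlf under LPS, which was not tested there. In WT it had 0.304 to 0.644 CPM with LPS and 0.118 to 0.262 with LPS+CCM, at 7 to 16 and 2 to 5 read pairs. In the 2 settings that kept Hlf, its log2 fold change in WT was -1.19 and -1.16, not called.

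Bhlhe41, the E-box repressor DEC2, was the 1 member with the same direction in all pairs of libraries with and without CCM. Without LPS it had 107, 82.2 and 95.5 CPM in WT vehicle and 117, 100.1 and 103 in WT CCM libraries, in order of replicate number. With LPS it had 103, 82.8 and 94.4 CPM without and 117, 96.6 and 117 with CCM. In KO it had 82.9 to 105 CPM (median 87.9) with vehicle, 86.8 to 136 (median 112) with CCM, 76.6 to 104 (median 86.9) with LPS and 106 to 144 (median 119) with LPS+CCM. The groups overlapped except in KO under LPS, but within libraries of the same replicate number Bhlhe41 was higher with CCM in 18 of 18 pairs, by 0.07 to 0.92 on the log2 scale (median 0.30). Of 15696 genes, 203 (1.29%) had the same direction in all 18 pairs, 98 of them higher with CCM. The log2 fold changes were 0.18 in WT (standard error 0.09, edgeR adjusted p = 0.55), 0.26 in KO (0.10, 0.9999), 0.24 in WT under LPS (0.09, 0.13) and 0.41 in KO under LPS (0.12, 0.25). Without replicates 2 and 6 the KO values were 0.26 (adjusted p = 0.43) and 0.43 under LPS (0.42), and without replicate 5, whose pair differed most, 0.32 under LPS (0.64). In 2 of these comparisons each same-numbered pair had r above 0.1, and in fits blocked on replicate number Bhlhe41 was called in both. It was 0.25 in WT under LPS (standard error 0.04, edgeR adjusted p = 0.00042, 1 of 9 members and 23.7% of genes called) and 0.26 in unstimulated KO (standard error 0.05, 0.012, 1 of 10 members and 3.11% of genes). In unstimulated KO, libraries of different numbers also had a median r of 0.223, so the pairing there is uncertain. In WT under LPS it was also called without WT LPS replicate 1 (0.32, 0.048). The genotype by CCM interaction of Bhlhe41 was 0.07 without LPS and 0.19 under LPS (standard errors 0.16 and 0.18), or 0.08 and 0.20 without replicates 2 and 6, so a difference between WT and KO was not detected.

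**Figure D5:**
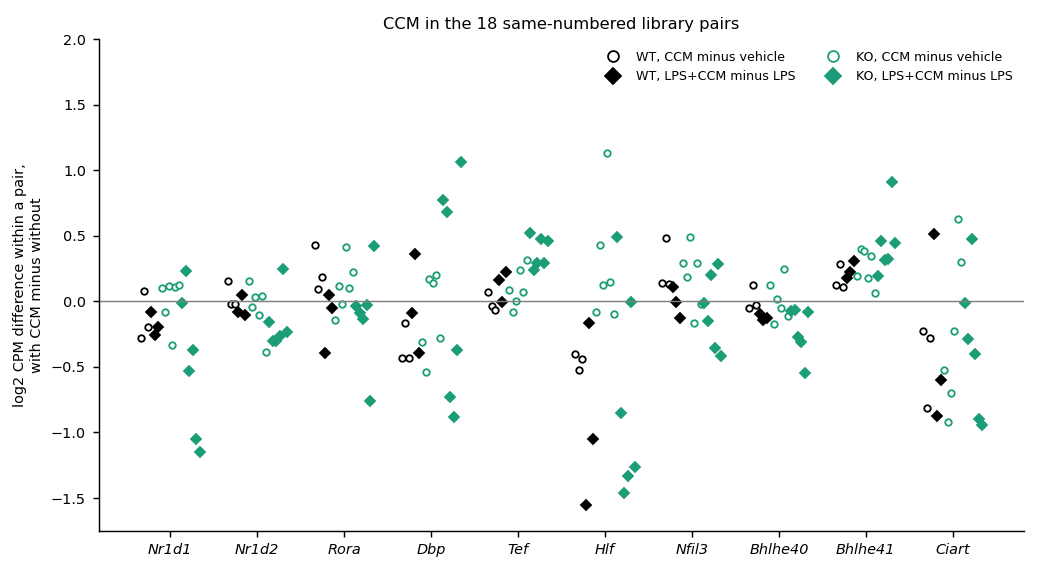
Difference in log2 CPM within pairs of libraries of the same genotype and replicate number, with CCM minus without (y axis), for the 10 genes (x axis). Open circles are CCM minus vehicle and diamonds LPS+CCM minus LPS, in WT (black) and KO (green). For Bhlhe41 all 18 points lie above 0, and for Tef 14 of 18.

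For the other members the 18 pairs were divided. Tef was higher with CCM in 14 of 18 (median 0.19), and its largest change was in KO under LPS, 0.36 (standard error 0.12, edgeR adjusted p = 0.37), or 0.39 without replicates 2 and 6 (0.27), where it had 14.6 to 19.0 CPM with LPS and 17.2 to 24.6 with LPS+CCM. Nfil3 was higher in 10 pairs, Rora in 9, Dbp in 7, Nr1d1 and Nr1d2 in 6 each, Hlf in 5, and Bhlhe40 and Ciart in 4 each. Nr1d2 was 0.05 in unstimulated WT macrophages (standard error 0.08, edgeR adjusted p = 0.86) and -0.04 under LPS (0.08, 0.83). Nr1d1 was -0.14 and -0.19 in the same comparisons (standard errors 0.20 and 0.28). Dbp, at 6.11, 4.92 and 6.01 CPM with vehicle and 4.51, 4.38 and 4.43 with CCM in WT, did not overlap between these groups but was not called (-0.35, standard error 0.15, edgeR adjusted p = 0.49). Rora, at 18.3 to 20.6 CPM with vehicle and 20.97 to 24.7 with CCM in WT, did not overlap either and was not called (0.25, standard error 0.09, 0.43). With 3 libraries per group and no count of all genes that separate so, these 2 members are not shown to stand out. The LPS by CCM interaction was called for 0 of 10 members in WT (2.09% of 14747 genes) and 0 of 10 in KO (0.00685% of 14588), with Rora in WT the 1 member at an unadjusted p under 0.05 (-0.39, standard error 0.16, edgeR adjusted p = 0.28). The genotype by CCM interaction was called for 0 of 10 members and 0.0% of genes without LPS (14905 tested) and under LPS (14546 tested), with 0 members at that p. DESeq2 called no member in these interactions, and edgeR none without replicates 2 and 6. Among other clock genes, those called with CCM under LPS in WT were Arntl (0.43 higher, edgeR adjusted p = 0.044), Cry1 (log2 fold change -0.33, 0.013) and Timeless (log2 fold change -0.90, 0.00093). In WT under LPS 6 of the 6 LPS-induced genes and 3 of the 9 REV-ERB targets (Cry1, Ccl2 and Il6) were called lower with CCM and 1 target, Arntl, higher, against 11.9% of all genes called, with no member of the set among them. In KO under LPS 1 LPS-induced gene, Cxcl10, was called lower and 0 of the 9 targets were called, against 0.112% of all genes. The median log2 fold change of the 6 LPS-induced genes was -0.91 in WT and -0.75 in KO.

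Across all 36 libraries, the pattern of each member was compared with 11178 other genes by Pearson's r of log2 CPM, as a description, since the libraries share treatments and the coefficient largely follows LPS. The gene most like Rora was Xpr1 (r = 0.988), most like Bhlhe40 Slc26a11 (0.979), most like Tef Tmem86a (0.977) and Cebpa (0.977), and most like Dbp Ssbp3 (0.963). Nr1d2 was most like Gatm (0.907) and Nr1d1 most like Spry2 (0.864). For Bhlhe41, not called with LPS, the most alike genes were Gde1 (0.826) and Gsta3 (0.786). Nfil3 (P3h1, 0.719), Hlf (Adgrf5, 0.696) and Ciart (Mdga1, 0.557) had no close match. In order of mean level over the 8 groups, the WT and KO groups without LPS ranked above all groups with LPS for Nr1d1, Nr1d2, Rora, Dbp, Tef and Bhlhe40. For Rora, Dbp, Tef and Bhlhe40 the lowest group without LPS did not overlap the highest with LPS, while no other neighbours in these orders were separate. KO replicate 6 without LPS (5.81 CPM with vehicle) lay below the WT LPS range for Rora. For Bhlhe41 the 4 groups with CCM ranked above the 4 without, but all neighbours overlapped.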

How the data were processed

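RNA from BMDMs was sequenced as poly(A)-selected, paired-end libraries. The authors deposited counts of read pairs per gene, not normalised, made per the submitters' processing notes with fastp, HISAT2 2.0.5 and featureCounts 1.5.0-p3 on mm10; the strand setting is not given in the sources used here. Gene coordinates in the deposited table are those of GRCm38. Groups were taken from the labels. Per the study, n counts female mice (3 WT and 6 KO) and the macrophage replicates are biological; no source says that libraries of the same number share an animal.

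Counts were tested with edgeR 4.0.16 in R 4.3.3 (filterByExpr, TMM, quasi-likelihood F-test, two-sided, Benjamini-Hochberg adjusted p of at most 0.05 over all genes tested), on the groups compared only. Genotypes were also compared on counts summed over the 4 treatments of a replicate number. Alternatives were DESeq2 1.42.0, other scalings, no filter on low counts, a block for the replicate number, leaving out each replicate and, chosen after seeing the data, leaving out KO replicates 2 and 6. CPM on the log2 scale had a prior count of 2.

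The 10 members, the gene lists and the markers were chosen with earlier results of these data known. All members were named, with genes of the lists, some of which are not reported here; Lyz1 and Lyz2 were chosen after their values were seen. Likeness between genes was computed among genes of an average log2 CPM of at least 1.

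A pairing was taken as borne out where each same-numbered pair of libraries had r above 0.1 between deviations from the group means. This held for LPS in KO (r of 0.300 to 0.830), CCM in KO (0.337 to 0.839) and CCM under LPS in WT (0.151 to 0.360). Libraries of different numbers had a median r of 0.175, 0.223 and -0.132 in these comparisons. In KO the rule alone therefore does not show that same-numbered libraries are paired. Blocked values are given for these comparisons where they change a call. The fits were tested on simulated data with 200 genes changed by 1 on the log2 scale.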

Additional observations from a re-analysis of the deposited data

Results flagged for a closer look

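Among the 10 members in the 4 KO groups of 6 libraries, 40 combinations of gene and group, 7 held 1 library far from the others by Dixon's test (gap to range ratio above 0.625). Chance gives about 1 in 20 groups. Of the 7, 3 were libraries labelled KO replicate 2, namely Nr1d2 with vehicle (53.4 CPM, ratio 0.678) and with CCM (51.9 CPM, 0.627), both far above the other KO libraries, and Tef with LPS+CCM (17.2 CPM, 0.688), below them. A further 3 were libraries of KO replicate 6, with Rora low with CCM (6.82 CPM, 0.747) and with LPS (2.996 CPM, 0.715) and Ciart high with LPS (4.29 CPM, 0.633). The last was Hlf with LPS in KO replicate 4 (0.916 CPM, 0.764), a gene with 1 to 23 read pairs per library. The part of the labels of replicate 2 and of the markers of replicate 6 in these values was not tested.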

How the results depend on the processing

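No member was called under DESeq2, DESeq2's size factors or the lack of a filter where the main fit called none, except Bhlhe41 with CCM under LPS in WT without the filter. The number of members called there was 0 with TMM and 1 with library totals alone, with no filter and with the replicate block, and 0 to 1 when a replicate was left out. With the replicate block 1 member was called with CCM in unstimulated KO and 2 with CCM under LPS in KO (Bhlhe41 0.41, adjusted p = 0.037, and Tef 0.35, 0.038), where the pairing was not borne out (r of same-numbered libraries from -0.102 to 0.813). It was not borne out for LPS and for CCM in WT either (0.046 to 0.172 and 0.052 to 0.463), and there the block changed no call of a member. Leaving out KO replicates 2 and 6 gave 1 member, Nr1d2, with vehicle, with CCM and for the summed counts, against 0. With library totals alone, Bhlhe41 with LPS in WT changed sign to -0.40 (called), since the median of all genes shifts by -0.41. Of the values that left out a replicate, counts of called members included, 1202 were classed as the same, 10 lost the call, 1 gained it and 9 moved. In none of them did a call reverse its sign. For members that were not called, being classed as the same does not mean that the sign was kept. With LPS in WT, Hlf ranged from -0.47 to 0.06, and with CCM under LPS in WT, Nr1d1 ranged from -0.50 to 0.13. Depth limits Hlf and Ciart, and the spread between KO libraries limits each comparison of genotypes.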
